A study of Homo sapiens with 6 samples.

Results

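The genes described here are 9 sensors and adaptors of double-stranded RNA (dsRNA): IFIH1, DDX58, DHX58, EIF2AK2, TLR3, MAVS, ADAR, TBK1 and IRF3. They were chosen by symbol, and all 9 were found among the 23228 gene symbols of the count table. The series measured gene expression by RNA-seq in U2OS, an established human osteosarcoma cell line, harvested 48 hours after lipid transfection. One group of 3 libraries received a scrambled siRNA and the other group of 3 received siRNA against ALKBH5, the enzyme that removes the methyl mark N6-methyladenosine (m6A) from RNA. Both groups were transfected by the same method. Untransfected cells, further ALKBH5 siRNA groups and re-expression of ALKBH5 were not analysed here, so a response to losing ALKBH5 cannot be told apart from a response to the siRNA itself.

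Cells carry several receptors for long or uncapped dsRNA, which viruses make and which the cell's own transcripts can also form. RIG-I (gene DDX58) and MDA5 (gene IFIH1) sit in the cytosol and signal through MAVS on mitochondria, while LGP2 (gene DHX58) lacks their signalling domains and tunes them. TLR3 reads dsRNA in endosomes, and PKR (gene EIF2AK2) halts translation by phosphorylating eIF2-alpha. MAVS and TLR3 lead to the kinase TBK1 and the transcription factor IRF3, which induces interferon-beta, and interferon in turn induces several of the sensors. ADAR edits adenosine to inosine in dsRNA, which keeps the cell's own RNA from being read as foreign. Synthetic siRNAs are themselves short dsRNAs, and both groups received one.

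Reads in genes numbered from 18817181 to 23410007 per library, so that 1 CPM (reads relative to the TMM-scaled library size) rested on 19.0 to 24.0 reads. Markers of leukocytes, cells rich in some of these sensors, summed over 10 genes to between 12.9 and 14.3 CPM with scrambled siRNA and to between 11.5 and 16.3 CPM with ALKBH5 siRNA. Of the 5 tested, LAPTM5 rose (1.06 to 3.67 CPM), PTPRC (1.31 to 0.619 CPM) and CORO1A (7.25 to 5.20 CPM) fell and 2 were not called, and the T cell marker CD3E had 0 reads in every library. Of 12 mesenchymal and osteoblast markers, VIM, SPARC, COL1A1 and FN1 were abundant in both groups. VIM (1936 to 1478 CPM) and SPARC fell, while FN1 (1170 to 2451 CPM), COL1A1 and CDH11 rose. Of the osteoblast genes, RUNX2 rose (25.3 to 42.0 CPM, with groups that overlapped) and ALPL fell (3.97 to 2.49 CPM). COL1A2 was low (4.44 and 1.12 CPM), TWIST1, SP7 and BGLAP were below 0.05 CPM on average and IBSP had 0 reads. The part of these markers in the results was not tested.

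Promoter sequences are shown for the sensors that carry an element of the kind read by interferon regulatory factors, since IRF3 is itself a member of the set and since these sensors are known interferon-induced genes. RefSeq promoters (GRCh38.p14, from 250 bases before to 50 bases after a start) were matched for 7 of the 9 genes, all but DHX58 and IRF3. Both strands were searched for GAAA repeated after any 2 bases, the core of the interferon-stimulated response element, and for GAAA repeated after any 1 base. Capitals mark the match in windows of 30 bases, read 5′ to 3′ on the gene's strand.
IFIH1, chr2:162318686-162318715, minus strand: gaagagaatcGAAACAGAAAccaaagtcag
IFIH1, chr2:162318818-162318847, minus strand: tcgctttcctTTTCTGTTTCccgcggtgtc
EIF2AK2, chr2:37156967-37156996, minus strand: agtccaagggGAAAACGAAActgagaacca
TLR3, chr4:186069142-186069171, plus strand: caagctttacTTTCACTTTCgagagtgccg
DDX58, chr9:32526380-32526409, minus strand: ggtgcggaggGAAACGAAActagcccgagg

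IFIH1 held 3 matches of the form with 2 spacer bases, of which 2 overlap each other on the reverse strand, and 1 lay from base −21 to base −12 before the start. EIF2AK2 and TLR3 each held 1 such match, which crossed the start in both, and DDX58 held 1 match of the form with 1 spacer base. The promoters of MAVS and TBK1 and the 3 listed for ADAR held neither form. Among all 35116 promoters of the table, 3.57% held the form with 2 spacer bases and 3.12% that with 1. A match describes letters in this window and says nothing of binding.

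ALKBH5, the gene targeted by the siRNA, was low in every knockdown library. It stood at 138, 148 and 143 CPM in the scrambled libraries and at 19.4, 16.2 and 15.7 CPM in the ALKBH5 siRNA libraries (log2 fold change −3.06, SE 0.10, edgeR adjusted p = 1.6e-09). The groups did not overlap.

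Changes went in both directions within the set. Of the 8 members with enough reads to test, 4 rose (IFIH1, TLR3, DDX58 and MAVS), 3 fell (IRF3, TBK1 and ADAR) and EIF2AK2 was not called. The change across the transcriptome was wide: 61.6% of the 14504 tested genes were called, 30.8% higher and 30.8% lower. Against that background, 7 called genes of 8 is no result about the set. In 7 of the 8, all libraries of one group lay on one side of the other group (4 higher, 3 lower), as they did in 67.4% of all tested genes (33.5% higher, 33.9% lower). The sizes differed more than the calls. The median absolute log2 fold change of all tested genes was 0.46, which IFIH1, TLR3, DDX58 and MAVS exceeded and the other 4 tested members did not.

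**Figure D1:**
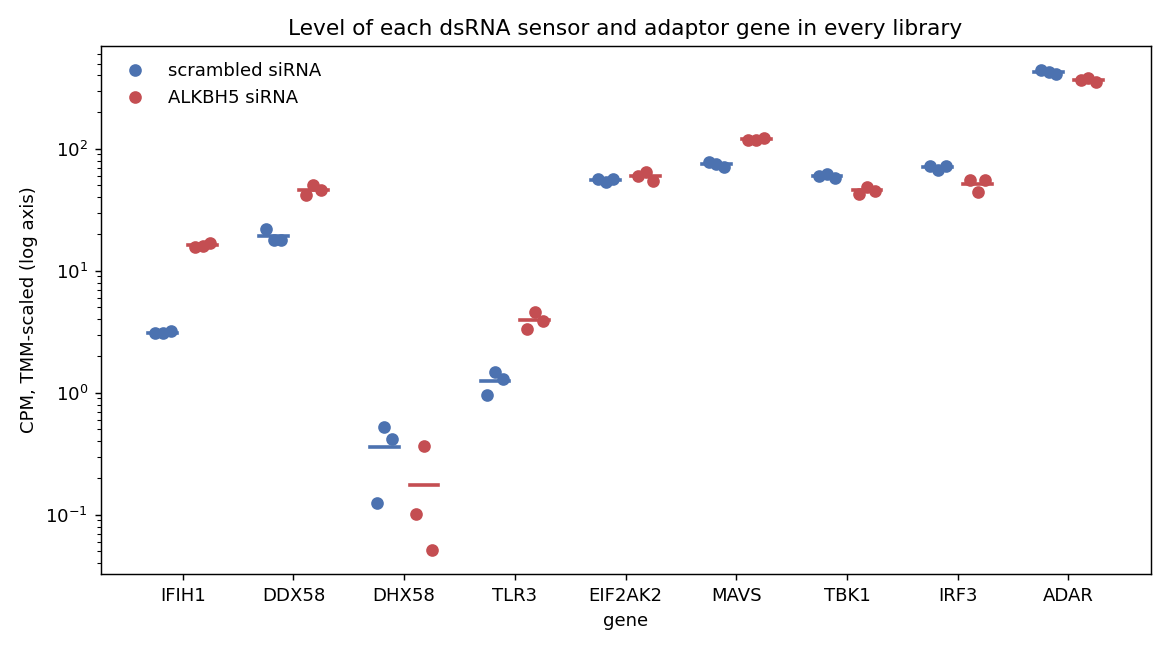
Level of each of the 9 genes in every library, as TMM-scaled CPM on a log axis; dots are libraries (3 per group) and bars are group means. The ALKBH5 siRNA libraries lie above the scrambled ones for IFIH1, DDX58, TLR3 and MAVS and below them for TBK1, IRF3 and ADAR, while EIF2AK2 and DHX58 overlap.

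Among the cytosolic receptors, IFIH1 (MDA5, which binds long dsRNA) moved most. The gene lies on chromosome 2 from 162267074 to 162318684 (RefSeq, GRCh38.p14; the reads were placed on hg19). It stood at 3.08, 3.07 and 3.19 CPM in the scrambled libraries and at 15.8, 15.9 and 16.8 CPM in the ALKBH5 siRNA libraries. Libraries of a group were close together and the groups were far apart. The rise was 5.18-fold (log2 fold change 2.37, SE 0.14, 95% interval 2.07 to 2.68, edgeR adjusted p = 5.4e-08). A larger absolute log2 fold change was seen in 2.55% of all tested genes. CPM is a share of a library, so fewer or more transcribing cells and less or more RNA per cell cannot be told apart here.

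DDX58 (RIG-I, which binds dsRNA ends with a 5′ triphosphate, named RIGI by RefSeq, chromosome 9, 32455302 to 32526196) rose as well, but less far. It stood at 21.9, 17.8 and 17.8 CPM in the scrambled and at 41.9, 50.7 and 45.5 CPM in the ALKBH5 siRNA libraries. The lowest knockdown library was still well above the highest control. The rise was 2.40-fold (log2 fold change 1.26, SE 0.12, 95% interval 1.01 to 1.52, edgeR adjusted p = 2.1e-06).

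DHX58 (LGP2, chromosome 17, 42101411 to 42112714), the third helicase of this family, was close to the limit of detection in both groups. It had 3, 11 and 8 reads in the scrambled and 2, 7 and 1 reads in the ALKBH5 siRNA libraries, where 3 reads correspond to 0.125 to 0.158 CPM. The groups overlapped, and the gene did not reach the minimum for testing. Without that minimum its log2 fold change was −0.996 (edgeR adjusted p = 0.28), so no difference was detectable at this depth.

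TLR3, the endosomal receptor (chromosome 4, 186069156 to 186088073), was low but rose in every knockdown library. It had 23, 31 and 25 reads in the scrambled and 65, 88 and 76 reads in the ALKBH5 siRNA libraries, or 0.957, 1.49 and 1.31 CPM against 3.33, 4.63 and 3.89 CPM. The groups did not overlap. The rise was 3.17-fold, with a wide interval at this number of reads (log2 fold change 1.66, SE 0.25, 95% interval 1.12 to 2.21, edgeR adjusted p = 0.00011).

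EIF2AK2, which encodes the translation-blocking kinase PKR (chromosome 2, 37099210 to 37156980), was the member whose groups came closest. It stood at 57.0, 53.8 and 56.0 CPM in the scrambled and at 60.0, 64.3 and 54.6 CPM in the ALKBH5 siRNA libraries. The groups overlapped through ALKBH5 siRNA replicate 3. The log2 fold change was 0.10 (SE 0.09, edgeR adjusted p = 0.35), and its 95% interval of −0.09 to 0.30 lies below the intervals of IFIH1, DDX58, TLR3 and MAVS. The promoter of EIF2AK2 holds 1 match of the form with 2 spacer bases and that of IFIH1 holds 3. Whether these matches bear on the levels was not tested.

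MAVS, the mitochondrial adaptor of RIG-I and MDA5 (chromosome 20, 3846834 to 3876118), rose moderately. It stood at 77.6, 74.8 and 70.7 CPM in the scrambled and at 118, 119 and 124 CPM in the ALKBH5 siRNA libraries. All 3 knockdown libraries were above all 3 controls, with little spread in either group. The rise was 1.61-fold (log2 fold change 0.69, SE 0.08, 95% interval 0.52 to 0.86, edgeR adjusted p = 9.2e-06).

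The kinase and the transcription factor that act after MAVS and TLR3 went the other way. TBK1 (chromosome 12, 64452120 to 64502114) stood at 59.8, 62.3 and 57.2 CPM in the scrambled and at 42.6, 48.6 and 45.5 CPM in the ALKBH5 siRNA libraries. Its groups did not overlap, and it fell by 0.39 on the log2 scale (SE 0.09, edgeR adjusted p = 0.0023). An antisense gene annotated in GENCODE 29 covers 702 of its 4762 exonic bases, and the strand setting of the counting is not given in the sources used here.

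IRF3 (chromosome 19, 49659572 to 49665857), the factor that TBK1 phosphorylates, stood at 71.8, 67.4 and 71.7 CPM in the scrambled and at 55.1, 44.6 and 55.3 CPM in the ALKBH5 siRNA libraries. ALKBH5 siRNA replicate 2 was the lowest, and the groups did not overlap. IRF3 fell by 0.44 on the log2 scale (SE 0.10, edgeR adjusted p = 0.0020). Its exons share 734 of 3794 bases with BCL2L12 on the opposite strand, and without the strand setting reads of the shared bases cannot be assigned. BCL2L12 itself had a log2 fold change of −0.28 (adjusted p = 0.013), a call that ended when scrambled replicate 2 was left out (adjusted p = 0.0502).

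ADAR, the editing enzyme (chromosome 1, 154582057 to 154627997), was the most abundant member and fell least. It stood at 443, 429 and 410 CPM in the scrambled and at 368, 381 and 352 CPM in the ALKBH5 siRNA libraries. The groups did not overlap, but the gap between them was small. ADAR fell by 0.22 on the log2 scale (SE 0.07, 95% interval −0.38 to −0.06, edgeR adjusted p = 0.019). Leaving out scrambled replicate 1 ended the call (adjusted p = 0.067), as did leaving out ALKBH5 siRNA replicate 3 (adjusted p = 0.065). Counts per gene do not separate the interferon-inducible long isoform of ADAR from the constitutive short one.

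None of the 3 falls, of TBK1, IRF3 and ADAR, was shown to exceed 1.5-fold, and neither was the rise of MAVS (edgeR glmTreat adjusted p = 0.11). IFIH1, DDX58 and TLR3 passed that stricter test.

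**Figure D2:**
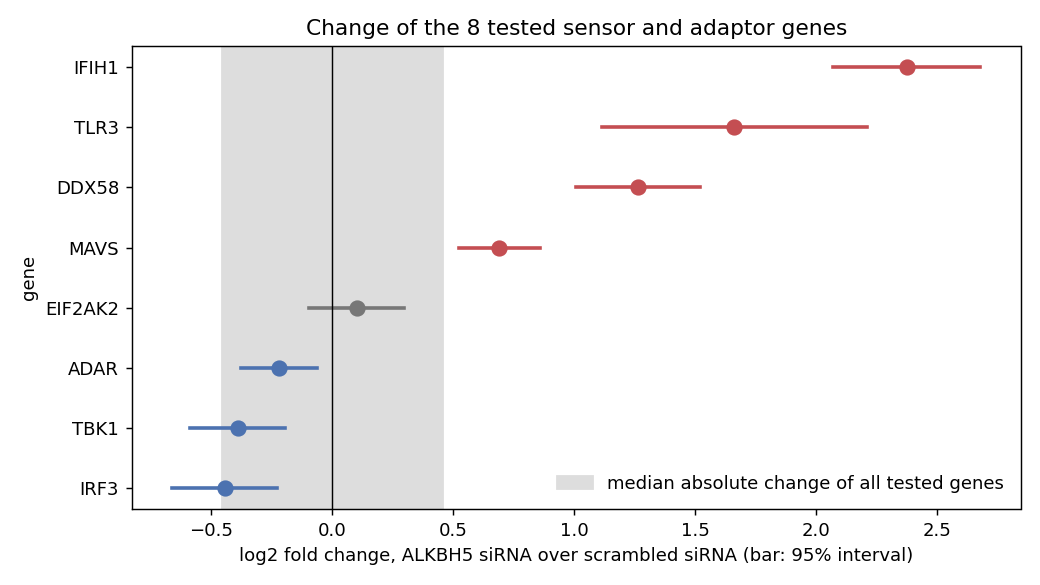
Log2 fold change of the 8 tested genes, ALKBH5 siRNA over scrambled siRNA, with 95% intervals; red was called higher, blue lower and grey not called. The grey band spans plus and minus the median absolute change of all tested genes (0.46); the intervals of IFIH1, TLR3, DDX58 and MAVS lie to its right.

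Ratios of reads within a library, which no scaling between libraries can move, restate the changes above. They use the same reads and are no further test of the split. For each read of IFIH1 there were 144, 139 and 128 reads of ADAR in the scrambled libraries and 23.3, 24.0 and 20.9 in the ALKBH5 siRNA libraries. The balance of editing enzyme to MDA5 messages thus differed between the groups without overlap. ADAR reads per read of DDX58 went from 22.5 ± 1.99 to 8.01 ± 0.67 (SD, n = 3; exact 2-sided permutation p = 0.1). MAVS reads per read of IRF3 went from 1.06 ± 0.064 to 2.35 ± 0.28, also without overlap (exact permutation p = 0.1). TBK1 and IRF3, by contrast, kept a ratio whose groups overlapped, at 0.851 ± 0.065 and 0.895 ± 0.17 (exact permutation p = 0.9). The 2 sensors also changed relative to each other, from 6.16 ± 0.82 to 2.85 ± 0.29 DDX58 reads per read of IFIH1 (exact permutation p = 0.1). The 7 ratios computed were chosen after the values were seen, 3 libraries against 3 cannot give a p below 0.1, and adjusted over the 7 the lowest is 0.12.

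Levels of different genes were compared per length, as reads per kilobase of the longest GENCODE 29 transcript (RPKM). In scrambled cells ADAR led at 60.1 ± 2.31 (SD, n = 3), followed by IRF3 at 24.5 ± 0.87 and TBK1 at 18.3 ± 0.79. The signalling and editing genes thus stood above every sensor on this scale. MAVS (6.35 ± 0.30), EIF2AK2 (5.54 ± 0.16) and DDX58 (4.40 ± 0.54) formed a middle group, and IFIH1 (0.866 ± 0.018), TLR3 (0.208 ± 0.045) and DHX58 (0.136 ± 0.080) were the lowest. The ranges over libraries of neighbours in this order did not overlap, except for TLR3 and DHX58.

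In the ALKBH5 siRNA libraries the order was the same but for 3 genes. DDX58 moved from place 6 to place 4 at 10.6 ± 1.01 RPKM, beside MAVS at 10.3 ± 0.26, and the ranges of these neighbours overlapped. EIF2AK2 followed at 5.94 ± 0.48, with IFIH1 now close below it at 4.5 ± 0.17. TLR3 (0.657 ± 0.11) and DHX58 (0.0665 ± 0.065) no longer overlapped. The order depends on the length used. With the median length over a gene's transcripts, 4 members changed place in the scrambled and 5 in the ALKBH5 siRNA libraries, with TBK1 first (119 in the scrambled libraries) and EIF2AK2 at 46.8.

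**Figure D3:**
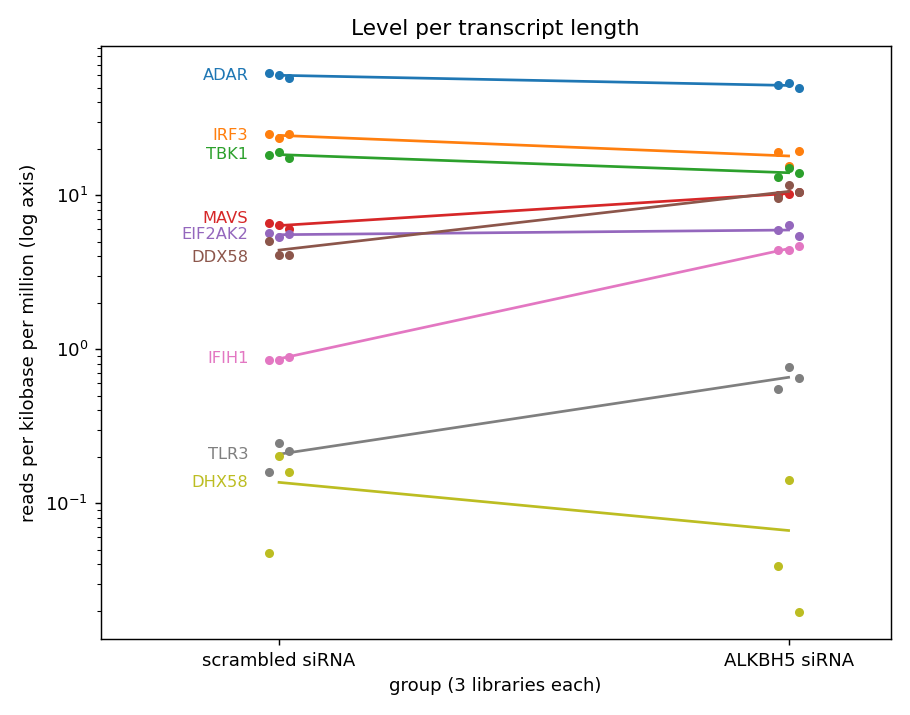
Level of each gene per length (RPKM by the longest transcript, log axis) in the 2 groups; dots are libraries and lines join group means. IFIH1, DDX58, TLR3 and MAVS rise from left to right, DDX58 reaches the level of MAVS, and ADAR stays highest at 60.1 and 51.6.

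The genes around the sensors were read from 9 further lists, with 133 genes in all, of which 114 were tested. Of these 43 were higher, 32 lower and 39 not called, with a median log2 fold change of 0.049, beside 0.0098 for all tested genes. The lists as a whole therefore resembled the background in count and median. Several routes went both ways within a list. The counts per list below stand beside 30.8% higher and 30.8% lower among all tested genes, and no list was tested as a set.

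Regulators of the RIG-I-like receptors were higher in 7 and lower in 5 of 19 tested genes (median log2 fold change 0.023). ZC3HAV1, an antiviral RNA-binding protein, rose from 28.3 ± 0.78 to 64.7 ± 8.09 CPM (log2 fold change 1.19), and the deubiquitinase CYLD, which restrains RIG-I, rose by 0.97 on that scale. RIOK3, an atypical kinase linked to MDA5, rose by 1.19. TRIM65, a ubiquitin ligase that activates MDA5, fell from 37.0 ± 0.60 to 14.5 ± 1.15 CPM (log2 fold change −1.36, edgeR adjusted p = 4.0e-07). MDA5's own message and that of its ligase therefore moved in opposite directions. Outside the naming rule, TRIM25, the ligase long tied to RIG-I, rose by 0.57.

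Proteins that act with MAVS, TBK1 and IRF3 were higher in 7 and lower in 6 of 21 tested genes (median log2 fold change −0.0055). TRAF5, a signalling adaptor, rose from 11.1 ± 0.73 to 50.7 ± 3.37 CPM (log2 fold change 2.19), and the TBK1-binding autophagy receptor OPTN rose from 67.0 ± 0.79 to 159 ± 2.40 CPM (log2 fold change 1.24). NLRX1, a mitochondrial protein that restrains MAVS, fell by 0.81, and PCBP1, which promotes MAVS degradation, by 0.49. Outside the naming rule, IKBKE, the closest relative of TBK1, fell from 13.4 ± 0.28 to 7.23 ± 1.37 CPM (log2 fold change −0.89, edgeR adjusted p = 0.00032). The messages of both IRF3 kinases, TBK1 and IKBKE, were therefore lower, though the fall of TBK1 was not shown to exceed 1.5-fold. IRF7, the interferon-amplifying relative of IRF3, had 1 read in 1 library and none in the others.

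Of the TLR3 route, 5 of 7 tested genes were higher and 1 lower (median log2 fold change 0.62). Among all tested genes 30.8% were higher and 30.8% lower. The lower gene was SRC, outside the naming rule (log2 fold change −0.23, edgeR adjusted p = 0.023). WDFY1, which brings the adaptor TRIF to TLR3, rose from 62.4 ± 2.46 to 140 ± 10.5 CPM. SARM1, a TIR-domain protein that inhibits TRIF, rose by 1.89, RIPK1 by 0.74 and the TLR chaperone UNC93B1 by 0.62 on the log2 scale. TRIF itself (gene TICAM1, outside the naming rule) rose from 14.2 ± 0.48 to 18.4 ± 0.56 CPM (log2 fold change 0.37, edgeR adjusted p = 0.010).

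The OAS enzymes make short oligoadenylates when they bind dsRNA. Of 6 tested genes of this route, 4 were higher and 2 lower (median log2 fold change 0.88), beside 30.8% and 30.8% of all tested genes. OAS1 rose from 0.779 ± 0.32 to 3.15 ± 0.071 CPM (log2 fold change 1.99), OASL rose by 1.76 and OAS3 by 0.72. ABCE1, a ribosome recycling factor, rose from 64.8 ± 8.63 to 134 ± 16.3 CPM.

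PKR regulators and the eIF2 branch were higher in 4 and lower in 7 of 16 tested genes (median log2 fold change −0.11). DNAJC3, an inhibitor of PKR, rose from 21.1 ± 1.83 to 39.1 ± 3.18 CPM (log2 fold change 0.89), and PKR's substrate eIF2-alpha (EIF2S1) rose by 0.62. EIF2S3, another eIF2 subunit, fell by 0.50 and EIF2B5, the catalytic subunit of its exchange factor, by 0.45. Outside the naming rule, the PKR activator PRKRA rose by 0.33 and the PKR inhibitor TARBP2 fell by 0.39.

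The list of proteins that edit, bind, unwind or degrade dsRNA also holds ADAT1 and SAMHD1. Of its 15 tested genes 6 were lower and 2 higher (median log2 fold change −0.086). STRBP, a dsRNA-binding protein, fell by 1.19 on the log2 scale, from 66.9 ± 3.53 to 29.3 ± 2.50 CPM. The exosome helicase SKIV2L, which restrains RIG-I-like receptors, fell by 0.82. The 2 higher genes were ADAT1, a tRNA adenosine deaminase, which rose by 0.91, and SAMHD1, a dNTP hydrolase, which rose by 0.83. By these descriptions neither has dsRNA as its substrate, so the higher count does not describe dsRNA-binding proteins. Outside the naming rule, the abundant dsRNA helicase DHX9 fell by 0.46. The 6 lower genes of 15 stand beside 30.8% lower among all tested genes.

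Of the genes that sense cytosolic DNA or Z-form nucleic acid, 3 of 7 tested were higher and 1 lower (median log2 fold change 0.087). STING (gene TMEM173), which also signals through TBK1, rose from 10.6 ± 0.34 to 20.3 ± 1.94 CPM, and RNASEH2B, a subunit of RNase H2, rose by 0.75. The DNA sensor IFI16 had a log2 fold change of 0.32, a call that depended on scrambled replicate 2 (adjusted p = 0.060 when left out) and on ALKBH5 siRNA replicate 3 (log2 fold change 0.21, adjusted p = 0.056 when left out). cGAS (gene MB21D1) had a log2 fold change of −0.40 (adjusted p = 0.044). That call was lost with DESeq2 (adjusted p = 0.0744), without the filter on low counts (0.054), and in 4 of the 6 fits that left out a library: without scrambled replicate 2 (0.097) or 3 (0.14) and without ALKBH5 siRNA replicate 2 (0.0737) or 3 (0.12).

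Interferon receptors, their kinases and the factors they activate were higher in 5 and lower in 4 of 13 tested genes (median log2 fold change 0.55). IRF1, a transcription factor that maintains basal expression of antiviral genes, rose by 1.39 on the log2 scale from 11.1 ± 1.12 CPM. Its relative IRF2 rose by 1.15 and the kinase JAK1 by 0.77. Outside the naming rule, IRF9, a DNA-binding factor activated by interferon, rose by 0.63. STAT2 had a log2 fold change of −0.36 with groups that overlapped, and its call (adjusted p = 0.031) was lost without scrambled replicate 1 (0.097) or 2 (0.11) and without ALKBH5 siRNA replicate 1 (0.064) or 2 (log2 fold change −0.23, adjusted p = 0.087).

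Of 19 listed genes induced by IRF3 or by interferon, 10 were tested, with 6 higher and 0 lower (median log2 fold change 0.73). Among all tested genes 30.8% were higher and 30.8% lower. Outside the naming rule, MX1 (log2 fold change −0.027, edgeR adjusted p = 0.95), IFI44 (−0.029, 0.88) and ISG20 (0.15, 0.49) were not called. RSAD2, CCL5, CXCL10 and CXCL11, also outside it, had too few reads to test. ISG15, a ubiquitin-like modifier, rose from 18.5 ± 2.05 to 42.7 ± 8.36 CPM, and 3 members of the IFIT family of RNA-binding proteins rose: IFIT3 by 1.35, IFIT2 by 1.17 and IFIT5 by 0.92 on the log2 scale. IFIT1, named outside the rule, had 22.3, 16.9 and 14.6 CPM with scrambled siRNA, against 16.9, 12.3 and 5.89 CPM with ALKBH5 siRNA, and the groups overlapped. Its log2 fold change was −0.62 (edgeR adjusted p = 0.15). It was called lower with limma-voom (adjusted p = 0.048), with the replicate number as a block (0.0023) and without ALKBH5 siRNA replicate 1 (log2 fold change −0.98, adjusted p = 0.023). Without ALKBH5 siRNA replicate 3 its log2 fold change was −0.30 (adjusted p = 0.22).

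Of the interferon genes in this list, 4 had no reads. IFNB1 and the lambda interferons IL29, IL28A and IL28B had 0 reads in all 6 libraries, which allows a level of up to 0.125 to 0.158 CPM in a library (3 reads, counting error only). IFNE, an interferon named outside the rule, had 4, 0 and 1 reads with scrambled siRNA and 5, 3 and 1 with ALKBH5 siRNA, too few to test.

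**Figure D4:**
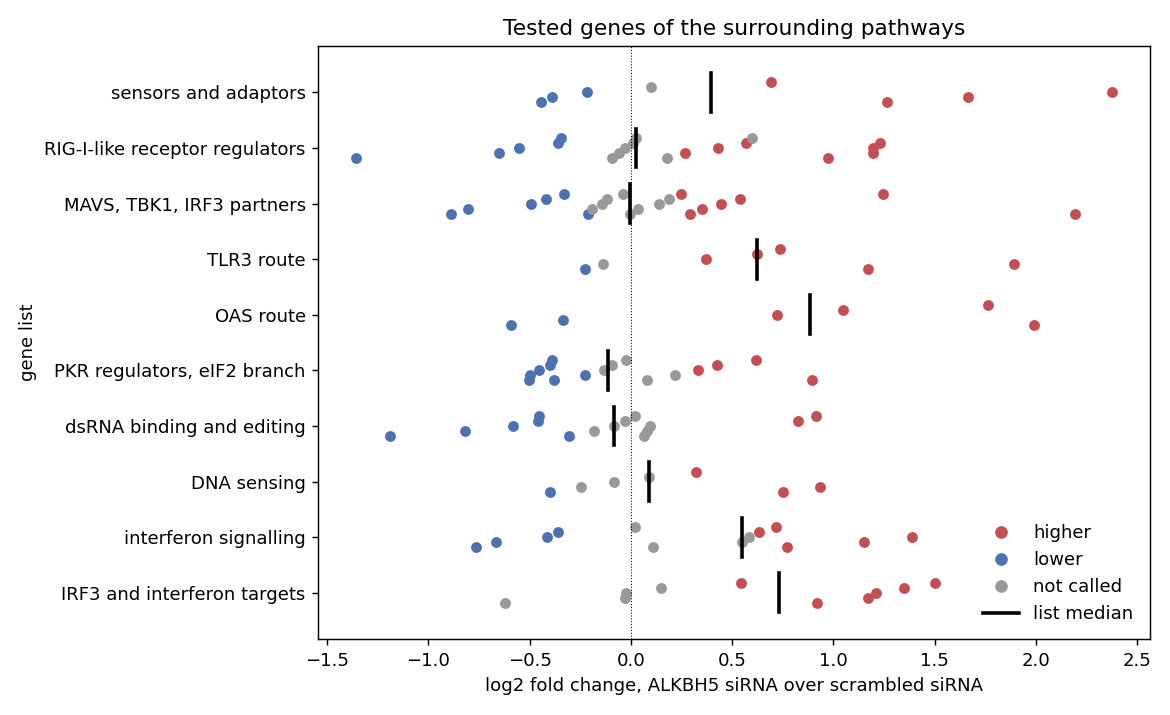
Log2 fold change (ALKBH5 siRNA over scrambled siRNA) of every tested gene of the sensor set and of 9 surrounding lists; each dot is a gene, coloured by its call, and black bars are list medians. Medians are 0.88 for the OAS route, 0.73 for IRF3 and interferon targets and 0.62 for the TLR3 route. They are −0.11 for the eIF2 branch and −0.086 for the dsRNA binding and editing list, which also holds ADAT1 and SAMHD1.

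The genes whose pattern over the 6 libraries was most like that of IFIH1 were PLAGL1, ELOVL4 and RAB27A. Likeness was the root mean square distance between log2 CPM values, each gene centred on its own mean, among 12650 genes with a mean log2 CPM of at least 1. The distances were 0.067, 0.088 and 0.092. PLAGL1, a zinc finger transcription factor, went from 16.0 ± 0.064 to 87.1 ± 4.79 CPM (log2 fold change 2.44). For IRF3, the member with the most negative log2 fold change, the nearest genes were SCAMP4, LARGE and SHKBP1, at distances of 0.034, 0.034 and 0.041. With 2 groups, such likeness mostly reflects a similar difference between them.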

How the data were processed

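The authors deposited raw read counts per gene symbol for 6 libraries, in a table of the series and in single files that held the same values (0 differing lines). HTSeq, SAMtools, TopHat2, CASAVA 1.8.2 and the build hg19 are listed, per the submitters' processing notes. Which annotation and strand setting were used is not given in the sources used here. Entries that name no gene entered neither library sizes nor fits. Of uniquely placed reads, those outside genes were 15.0% to 15.5% with scrambled siRNA and 17.3% to 18.6% with ALKBH5 siRNA. Ambiguous reads were 0.814% to 0.856% with scrambled siRNA and 0.737% to 0.752% with ALKBH5 siRNA. Both shares thus differed between the groups without overlap, and the reason was not tested. Entries with more than 1 placement were 32.8% to 33.6% of all entries. The labels do not say whether replicates were separate cultures, and the p-values then reflect spread among libraries that may be technical. No 2 replicates agreed within counting error (chi-square over its degrees of freedom 6.21 to 17.2).

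Genes were kept with filterByExpr (14504 of 23228), scaled with TMM and compared with edgeR 4.0.16 in R 4.3.3 (robust glmQLFit, glmQLFTest, 2-sided, group as the single term). P-values were adjusted by Benjamini-Hochberg across the 14504 genes and called below 0.05. Standard errors were derived from the fold change and its F statistic. CPM values use TMM-scaled library sizes and are given as mean ± SD (n = 3). Log2 CPM values for likeness used a prior count of 2. The script was tested on simulated counts.

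The members and lists were chosen with earlier results of these data known. Named genes were ALKBH5, the 9 members and, from each list, up to 4 called genes of at least 1 CPM in a group with the smallest adjusted p. In the list of IRF3 targets, IFNB1 and the lambda interferons were added whatever their level. Genes outside the rule were chosen after their values were seen. Most are marked as such, but IRF7, BCL2L12 and the cell type markers are not. Alternatives were RLE scaling, library totals, no filter, limma-voom (limma 3.58.1), at least 1 CPM in 3 libraries, DESeq2 1.42.0, no robust moderation, glmTreat against 1.5-fold, a replicate block, each library left out, and another transcript length. Epithelial and endothelial marker lists were also computed: 2 of 6 and 0 of 5 tested genes were higher and 2 and 2 lower. Of the mesenchymal markers 4 of 8 tested were higher and 3 lower, and 5 leukocyte markers were tested, with 1 higher and 2 lower. Some genes that the rule or the lists include are not reported here.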

Additional observations from a re-analysis of the deposited data

How the results depend on the processing

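Of the 15 alternatives, the stricter test against a 1.5-fold change (glmTreat) moved counts the most. It called 3 members higher and 0 lower, 23 of the surrounding genes higher and 5 lower, and 3601 genes called in all, where the quasi-likelihood test called 4, 3, 43, 32 and 8937. It asks for a larger change, so fewer calls follow from its construction. Under the other alternatives with all 6 libraries, 4 members were higher and 3 lower each time. Leaving out 1 library gave 4 members higher in each of the 6 fits and 2 to 3 lower, 40 to 44 surrounding genes higher and 27 to 32 lower, and 7878 to 8694 genes in all. The fall of ADAR was lost without scrambled replicate 1 or ALKBH5 siRNA replicate 3. Over the alternatives the log2 fold change ranged from 2.31 to 2.40 for IFIH1, 1.19 to 1.37 for DDX58, 1.49 to 1.8 for TLR3, 0.63 to 0.72 for MAVS, −0.51 to −0.35 for IRF3, −0.46 to −0.34 for TBK1 and −0.29 to −0.19 for ADAR. Of the 66 tested genes set against the alternatives, no called one changed sign. With the replicate number as a block, 4 members were higher and 3 lower, and 9760 genes were called in all. Deviations of same-numbered libraries correlated at 0.33, 0.058 and 0.35. Those of differently numbered libraries correlated at −0.37 to 0.077, the highest being scrambled replicate 2 with ALKBH5 siRNA replicate 1. Numbers 1 and 3 thus gave the highest correlations. Each ALKBH5 siRNA replicate was closest to the scrambled replicate of its own number, while scrambled replicate 2 was closer to ALKBH5 siRNA replicate 1 than to its own number. Whether the numbers pair the samples is not settled by these values, and the main fit did not use them. Depth limits DHX58 and the interferon genes, whose reads were at or near the floor of 3.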

Other observations

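Summed over the 9 genes, the level of the set was nearly the same in both groups, at 688 to 735 CPM in the scrambled and 697 to 729 CPM in the ALKBH5 siRNA libraries. ADAR made up the largest part of the sum and fell from 427 to 367 CPM on average, beside falls of IRF3 (70.3 to 51.7 CPM) and TBK1 (59.7 to 45.6 CPM). MAVS (74.4 to 120 CPM), DDX58 (19.2 to 46.0 CPM), IFIH1 (3.11 to 16.2 CPM) and TLR3 (1.25 to 3.95 CPM) rose. Rises and falls thus offset each other in the sum, which shows neither.

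PKR is 1 of 4 kinases that phosphorylate eIF2-alpha, and the others respond to other stresses. EIF2AK1, EIF2AK4 and EIF2AK3 are outside the naming rule and were not set against the alternatives. EIF2AK1, which senses heme shortage and mitochondrial stress, fell from 446 ± 3.63 to 342 ± 20.4 CPM (log2 fold change −0.38, edgeR adjusted p = 0.00065). EIF2AK4, which senses amino acid shortage, fell by 0.23 on the log2 scale (adjusted p = 0.022). EIF2AK3, the kinase of the endoplasmic reticulum, had a log2 fold change of 0.22 that did not pass (adjusted p = 0.087). No kinase of the 4 was called higher.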
